A study of Mus musculus with 21 samples.

Results

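The 80 genes described here encode subunits of the 5 complexes of oxidative phosphorylation. They were chosen by symbol alone, as every array gene whose name follows the Nduf, Sdh, Uqcr, Cox4 to Cox8 or Atp5 pattern, and they are 80 of 18193 genes measured. Complex I contributed 34 genes, complex II 4, complex III 8, complex IV 17 and complex V 17. Each gene was placed in a complex by the prefix of its symbol alone, Ndufa4 under complex I among them. Of these, 74 lay above background on all 21 arrays, taking as background the signal that 95% of 27 probe sets for bacterial transcripts did not exceed. Cox7a1, the muscle isoform of a complex IV subunit, was above background on 0 arrays, Cox8b on 2, Cox7b2 on 4, and Ndufb1, Ndufb4 and Cox6a2 on 20. All 80 were tested. The pattern does not take in the complex III subunit Cyc1, the complex I subunit Ndufab1 or the complex V factor Dmac2l, which are given with the companion lists.

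The cells were mouse nephron progenitors on a mixed strain background, sorted at E16.5 by the green fluorescence of a BAC transgene that places GFP and Cre under Six2, and each sample held 40000 cells. There were 7 groups of 3 arrays. Fresh cells were taken straight after sorting. Dispersed cells and pelleted aggregates were each cultured for 24 h in 10% serum with DMSO or with 4 µM BIO, and aggregates treated with BIO for 24 h went on for another 24 h in DMSO or in BIO. BIO blocks GSK3, the kinase that marks beta-catenin for destruction, and thereby turns on canonical Wnt signalling. None of the 7 groups was kept for 48 h in DMSO alone, so effects of the second day include those of time. The labels call the arrays biological replicates without naming separate litters or sorts, and p-values therefore rest on the spread among these arrays alone, which could be technical.

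Complexes I and II pass electrons from NADH and succinate to ubiquinone, complex III passes them to cytochrome c, and complex IV reduces oxygen. Complexes I, III and IV pump protons out of the mitochondrial matrix, and complex V uses their return to make ATP. Nearly all subunits are encoded in the nucleus, and many of their promoters are known targets of NRF1, of the ETS factor GABPA and of YY1. Nephron progenitors are known to rely strongly on glycolysis, while the proximal tubule that arises from their descendants is rich in mitochondria.

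RefSeq (GRCm38.p6) gave promoters for 66 of the 80 genes, each reaching 250 bases before the start and 50 after it. The letters GCATGCG of the NRF1 consensus, on either strand, were present for 10 of the 66 genes (15.2%), against 5.86% of 14452 genes of the array and 4.01% of 27025 genes with a promoter in the table. CCGGAAG, the GABPA stretch, was present for 17 (25.8%), against 15% and 9.93%. AAGATGG, the YY1 stretch, was present for 10 (15.2%), against 7.54% and 7.28%. CTTTGAT, a stretch of the TCF/LEF consensus that was added after the values were seen, was present for 1 gene, Ndufa5 (1.52%), against 3.46% and 4.29%. Each stretch was searched apart from the others, and a match is a description of the sequence and not a shown binding site. Of the 7 subunit genes that were higher with BIO in both culture formats, 6 had a promoter in the table, and NRF1 letters were present in 2 of them and GABPA letters in 1. The 3 promoters with a match are printed below beside that of Cox7a2l, whose rise in aggregates held in every alternative, and that of Cox6b2, whose response to BIO differed between formats. Each runs 5′ to 3′ on the minus strand over 280 bases, from 250 before the start to 30 after it, with motif letters in capitals.
Ndufa6: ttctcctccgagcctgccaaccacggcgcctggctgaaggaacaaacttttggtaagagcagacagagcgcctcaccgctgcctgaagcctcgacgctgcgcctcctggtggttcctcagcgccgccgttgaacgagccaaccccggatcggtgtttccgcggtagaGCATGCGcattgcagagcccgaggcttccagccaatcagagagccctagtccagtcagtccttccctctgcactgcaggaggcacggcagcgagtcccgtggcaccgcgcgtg
Atp5g2: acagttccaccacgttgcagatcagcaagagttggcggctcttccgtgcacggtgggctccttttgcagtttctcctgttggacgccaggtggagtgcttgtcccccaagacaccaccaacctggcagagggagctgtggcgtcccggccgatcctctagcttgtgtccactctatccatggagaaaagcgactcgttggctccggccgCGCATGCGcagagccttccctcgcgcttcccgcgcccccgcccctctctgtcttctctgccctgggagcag
Ndufs3: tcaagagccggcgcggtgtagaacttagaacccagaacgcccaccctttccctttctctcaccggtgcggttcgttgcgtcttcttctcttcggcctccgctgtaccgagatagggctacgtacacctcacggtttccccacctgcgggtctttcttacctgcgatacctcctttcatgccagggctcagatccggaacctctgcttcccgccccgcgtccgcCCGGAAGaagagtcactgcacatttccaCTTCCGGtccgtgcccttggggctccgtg
Cox7a2l: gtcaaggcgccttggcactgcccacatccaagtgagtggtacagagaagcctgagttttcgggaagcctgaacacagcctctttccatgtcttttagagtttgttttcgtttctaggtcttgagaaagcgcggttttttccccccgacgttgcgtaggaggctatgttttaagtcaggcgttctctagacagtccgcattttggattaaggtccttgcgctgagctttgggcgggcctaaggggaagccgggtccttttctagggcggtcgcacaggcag
Cox6b2: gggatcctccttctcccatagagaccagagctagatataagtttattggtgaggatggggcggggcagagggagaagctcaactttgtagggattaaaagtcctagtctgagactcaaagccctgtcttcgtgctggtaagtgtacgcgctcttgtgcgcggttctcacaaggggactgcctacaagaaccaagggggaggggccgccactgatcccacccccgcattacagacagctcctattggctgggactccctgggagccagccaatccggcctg
Ndufa6 lies at chr15:82354262-82354541 and has the NRF1 letters 83 bases before the start. Atp5g2 lies at chr15:102671018-102671297, where the NRF1 letters on both strands overlap and begin 41 and 40 bases before the start. Ndufs3 lies at chr2:90904692-90904971, with GABPA letters 27 bases before the start and, on the other strand, 1 base after it. Cox7a2l lies at chr17:83514304-83514583 and Cox6b2 at chr7:4753065-4753344, and neither window holds any of the 4 stretches, which says only that these letters are not there.

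The values are deposited signal intensities, quantile normalised and analysed as log2(value + 1), with the probe set of highest mean standing for each gene. Changes are log2 differences ± SE of a limma fit over all 21 arrays (n = 3 in each group), with Benjamini-Hochberg adjustment over all 18193 genes and a threshold of 0.05. Arrays had median signals of 87.2 to 106 before normalisation, 76 to 79.6% of genes were above background, and arrays of a group correlated at 0.975 to 0.992. The Wnt targets Axin2 and Lef1 rose with BIO by 3.32 ± 0.17 and 3.47 ± 0.17 in aggregates and by 4.25 ± 0.17 and 3.74 ± 0.17 in dispersed cells. All 9 measured nephron progenitor markers were above background in fresh cells.

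Most subunit genes moved little across the 7 groups. The distance between the highest and lowest group mean had a median of 0.505 log2 units over the 80 genes, against 0.971 over all genes and 0.632 over the 4635 genes whose mean log2 signal was above 10. It was under 0.5 for 39 genes (48.8%, against 14.6% of all genes and 34.4% of the bright genes) and over 1 for 14. The genes with the highest mean signal of their complexes were among the steady ones. Of these, Uqcrb, Atp5c1 and Cox7a2 had mean log2 signals of 13.67, 13.54 and 13.38, where the highest deposited signal was 18025.3 before log2. Signals near a ceiling can move less than the RNA does, and this was not tested. Uqcrb, a small complex III subunit, had group means from 13.60 ± 0.15 (SD, n = 3) in aggregates after 48 h of BIO to 13.71 ± 0.00338 in dispersed DMSO cells. Atp5c1, the rotating central stalk of ATP synthase, ranged from 13.46 ± 0.13 to 13.64 ± 0.055, and Ndufc2 of complex I from 12.77 ± 0.05 to 12.97 ± 0.04. Cox7a2 of complex IV ranged from 13.25 ± 0.14 in fresh cells to 13.47 ± 0.07 in aggregates with BIO. Sdha, the flavoprotein of complex II, spanned more, from 12.26 to 12.65. Median ranges by complex were 0.535 (I), 0.346 (II), 0.679 (III), 0.674 (IV) and 0.431 (V).

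**Figure D1:**
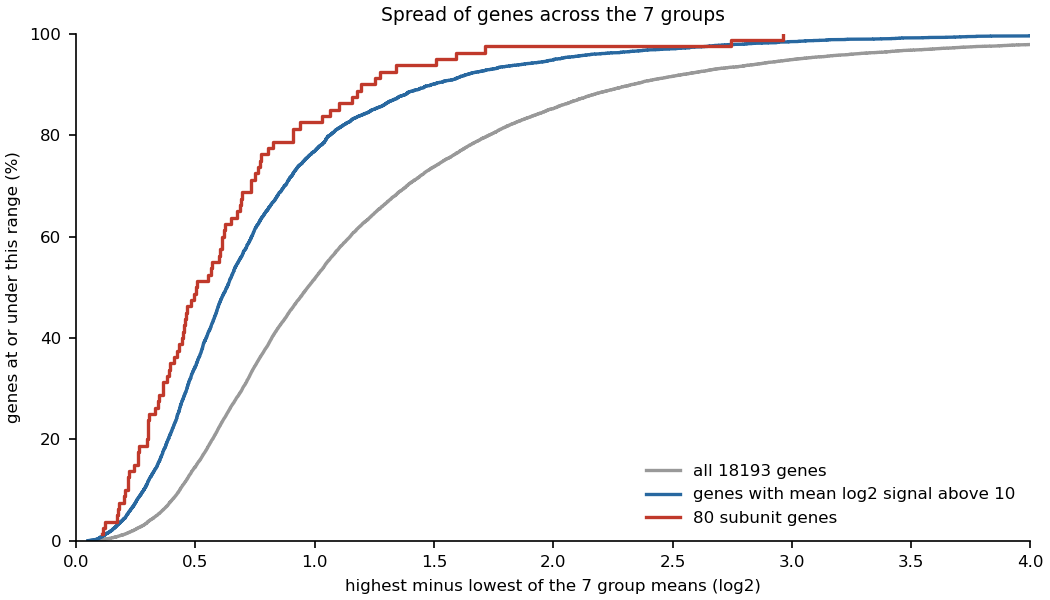
Cumulative share of genes (vertical axis, %) against the distance between the highest and lowest of the 7 group means (horizontal axis, log2 units), for all genes, for genes with a mean log2 signal above 10 and for the 80 subunit genes. The curve of the subunit genes lies to the left over most of its length, with a median of 0.505 against 0.971 for all genes, and 14 subunit genes lie beyond 1.

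Taking fresh cells into 24 h of culture in DMSO moved subunit genes in both directions. In aggregates 12 of 80 genes rose and 7 fell, where 18.4% of all genes rose and 14.5% fell (32.9% in all), and in dispersed cells 5 rose and 16 fell, where 15% rose and 18.3% fell (33.3% in all). The median change was 0.07 in aggregates and -0.05 in dispersed cells, beside 0.10 and -0.03 over all genes. Both comparisons share the fresh arrays.

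The clearest fall in culture was that of Cox7c, a small complex IV subunit read here by a dim probe set. The mean log2 signal was 7.31 over all arrays, against 12.53 for Cox4i1, 13.32 for Cox5a and 9.53 for Cox8a. How well this probe set reports Cox7c was not tested. Its log2 signals were 8.92, 8.73 and 8.61 in fresh cells, 8.24, 7.74 and 8.02 in dispersed DMSO cells, and 6.51, 6.67 and 6.85 in DMSO aggregates. The 3 groups did not overlap, and aggregates were lowest. Cox7c fell by 2.08 ± 0.20 in aggregates (4.22-fold, limma adjusted p = 6.34e-07) and by 0.76 ± 0.20 in dispersed cells (adjusted p = 0.00738), and it was 1.32 ± 0.20 lower in DMSO aggregates than in dispersed DMSO cells (adjusted p = 0.00391). A dimmer second probe set of Cox7c fell by 2.60 ± 0.77 in aggregates, and with the mean of both, the dispersed fall and the difference between formats no longer passed. Cox7a2l, which joins complexes III and IV into supercomplexes, had signals of 13.15, 13.02 and 13.11 in fresh cells and fell to 12.70, 12.54 and 12.48 in DMSO aggregates, with no overlap. Its 3 probe sets fell by 0.52 to 0.61 in aggregates. In dispersed DMSO cells Cox7a2l was 0.47 ± 0.08 lower than in fresh cells (limma adjusted p = 0.000156). Cox4i1, the ubiquitous form of the largest nuclear-encoded complex IV subunit, fell by 0.28 ± 0.09 in aggregates and by 0.35 ± 0.09 in dispersed cells.

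In complex I, Ndufv1, which binds NADH, fell from 12.41, 12.41 and 12.44 in fresh cells to 11.78, 11.93 and 11.87 in dispersed DMSO cells, a change of -0.56 ± 0.10 (adjusted p = 0.000349). In aggregates its change was -0.28 ± 0.10 and lost the call in 10 of 15 settings. Ndufa6, an accessory subunit, fell by 0.73 ± 0.17 in dispersed cells, and Ndufs3, a core subunit of the ubiquinone-reducing module, fell by 0.44 ± 0.08. Ndufb3 of the membrane arm was 0.40 ± 0.13 lower in aggregates and 0.42 ± 0.13 lower in dispersed cells. Against these, Ndufb10 was 0.77 ± 0.18 higher in aggregates. Ndufb1 and Ndufb4, which lay close to background, rose by 1.25 ± 0.44 in aggregates and by 1.18 ± 0.22 in dispersed cells respectively. The aggregate calls of Ndufb3 and Ndufb1 were lost in 8 and 7 of 15 settings, with limma adjusted p up to 0.351 and 0.177. Among these were the settings without fresh replicate 3 and without DMSO aggregate replicate 2 for both, without fresh replicate 1 and DMSO aggregate replicate 3 for Ndufb3, and without fresh replicate 2 and DMSO aggregate replicate 1 for Ndufb1. Ndufv1 in aggregates was lost without any one fresh replicate and without DMSO aggregate replicate 2 or 3.

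Sdha fell in both formats, from 12.67, 12.67 and 12.62 in fresh cells to 12.39, 12.23 and 12.31 in DMSO aggregates and to 12.26, 12.25 and 12.28 in dispersed DMSO cells. The changes were -0.34 ± 0.07 and -0.39 ± 0.07 (adjusted p = 0.00111 and 0.000313). With arrays centred the change in aggregates was -0.084 (limma adjusted p = 0.458), and with only the arrays compared it did not pass. Sdhb, the iron-sulphur subunit beside it, rose by 0.26 ± 0.10 in aggregates, just inside the threshold (adjusted p = 0.049), and lost the call in 9 of 15 settings. In complex III, Uqcrq had signals of 10.12, 9.61 and 9.98 in fresh cells, 10.43, 10.76 and 10.68 in dispersed DMSO cells and 11.23, 10.69 and 10.74 in DMSO aggregates. Every cultured array was above every fresh one. Uqcrq rose by 0.98 ± 0.16 in aggregates and by 0.72 ± 0.16 in dispersed cells, and Uqcr10 by 1.28 ± 0.29 in aggregates. With the mean of its probe sets the dispersed change of Uqcrq was 0.23 (limma adjusted p = 0.243).

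Cox5a, a core-binding complex IV subunit, rose by 0.41 ± 0.08 in aggregates and by 0.30 ± 0.08 in dispersed cells. Cox8c, known mainly from testis, rose by 0.83 ± 0.21 in aggregates and did not pass in dispersed cells (-0.005 ± 0.21). In complex V, Atp5md, a small subunit of the dimer interface, rose by 0.91 ± 0.14 in aggregates and by 0.70 ± 0.14 in dispersed cells. Atp5l rose by 0.87 ± 0.31 in dispersed cells, and its change in aggregates, 0.79 ± 0.31, did not pass. Without fresh replicate 2 the dispersed change of Atp5l was 0.56 (limma adjusted p = 0.213). That change lost its call in 4 of 15 settings, also without dispersed DMSO replicate 2 or 3. Atp5h, part of the peripheral stalk, fell by 0.29 ± 0.07 in aggregates, a call lost in 4 of 15 settings. In dispersed cells it fell by 0.33 ± 0.07 (limma adjusted p = 0.000922). The alternatives were not run for the dispersed changes of Cox7a2l, Ndufb3, Cox5a, Atp5md and Atp5h.

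The split in aggregates depended on scaling. It was 13 higher and 4 lower on the deposited scaling and 30 higher and 2 lower with each array centred on its median, against 12 and 7, and in dispersed cells it was 7 and 10 or 7 and 9, against 5 and 16. The Gapdh 3′ over 5′ control ratio was 9.50 ± 0.90 (SD, n = 3) in fresh cells, 12.1 ± 0.46 in dispersed DMSO cells and 14.2 ± 0.99 in DMSO aggregates, and with it as a covariate 8 genes passed in aggregates in place of 19. The summed signal of the 9 progenitor markers was 39670 to 40750 in fresh cells, 10860 to 11800 in dispersed DMSO cells and 12000 to 12570 in DMSO aggregates, and its part in these changes was not tested. In these bulk samples fewer cells of a type and less RNA per cell cannot be told apart.

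**Figure D2:**
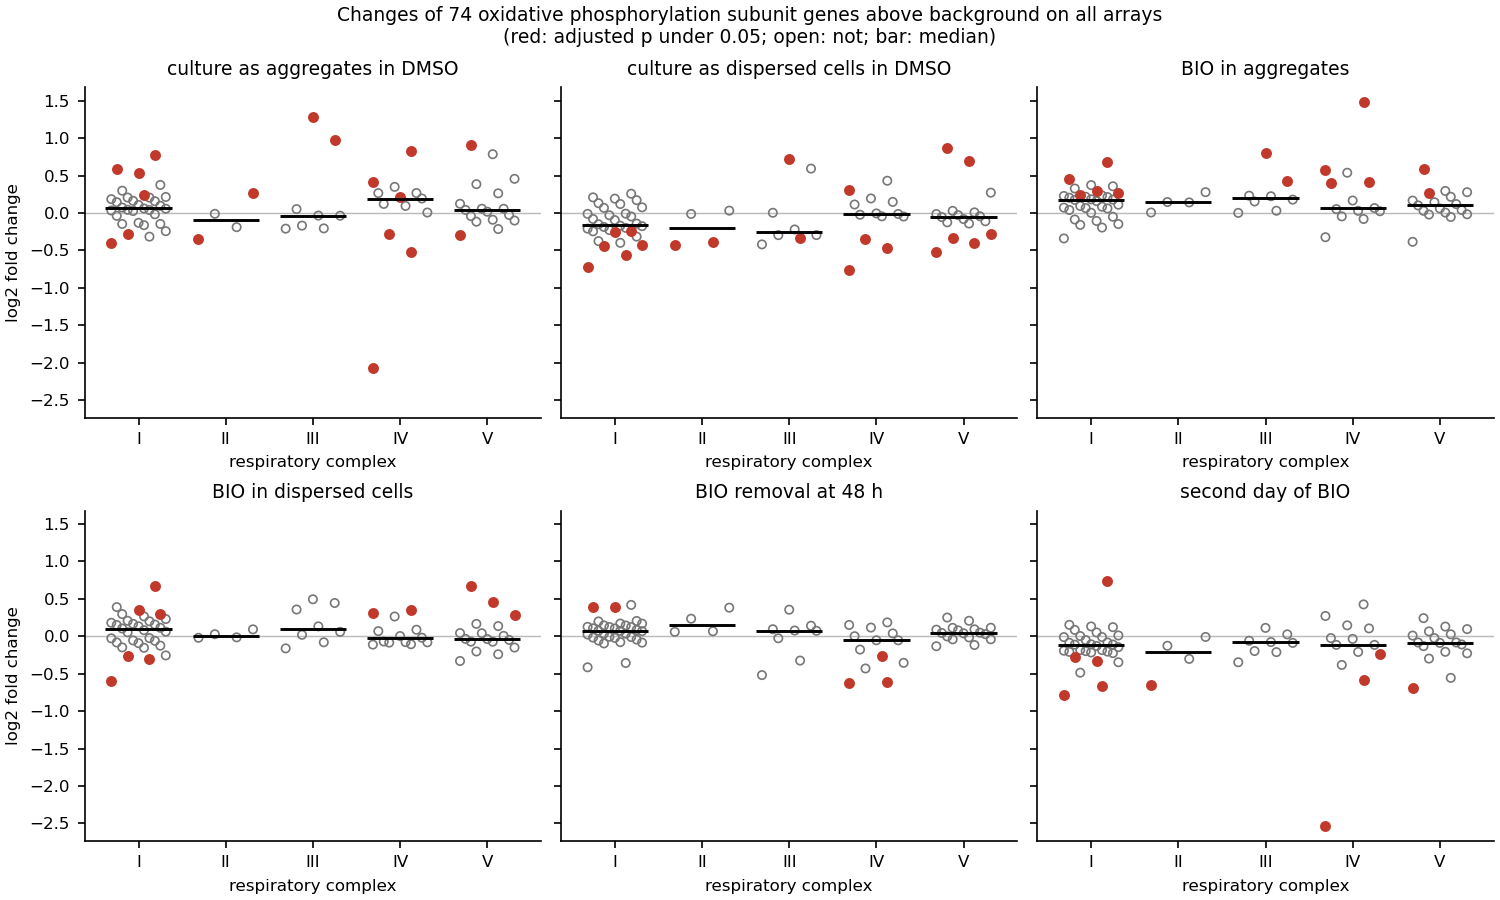
Log2 fold change (vertical axis) of the 74 subunit genes above background on all arrays, grouped by respiratory complex (horizontal axis) in 6 comparisons. Red points passed the adjusted threshold of 0.05, open points did not, and bars are medians, which lie near 0 throughout. Single genes of complex IV stand apart, Cox7c at -2.08 for culture as aggregates and Cox6b2 at 1.48 with BIO in aggregates and -2.53 on the second day of BIO.

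With BIO in aggregates, 13 of 80 subunit genes rose and 0 fell, where 17.5% of all genes rose and 12.5% fell (30% in all). Of the genes with a mean log2 signal above 10, 27.2% rose and 18.5% fell. The share of risers among subunit genes (16.2%) was thus near that of all genes. The limma fit gave 22 subunit genes an unadjusted p under 0.05 (27.5%, against 38.7% of all genes). The median change was 0.15, against 0.09 over all genes, and 64 of 80 genes had a positive change (80%, against 57.5%). On the deposited scaling 53 were positive, with a median of 0.07 against 0.02 over all genes. With arrays centred 56 were positive, with a median of 0.11 against 0.06. Complex I had 5 risers of 34, complex II 0 of 4, complex III 2 of 8, complex IV 4 of 17 and complex V 2 of 17.

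The rise of Cox7a2l held in every alternative, which were run for 8 of the 13 genes. Its signals were 12.70, 12.54 and 12.48 in DMSO aggregates and 13.14, 13.15 and 13.13 in BIO aggregates, a rise of 0.57 ± 0.08 (1.48-fold, limma adjusted p = 2.92e-05), and the groups did not overlap. Its 3 probe sets rose by 0.57, 0.62 and 0.95. In fresh cells it stood at 13.02 to 13.15, close to the BIO arrays, but the fall in culture and the rise with BIO are read from the same DMSO arrays.

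Cox4i1 rose from 12.44, 12.23 and 12.15 to 12.61, 12.70 and 12.70, by 0.40 ± 0.09 (adjusted p = 0.00292). In complex I, Ndufa6 rose from 10.85, 10.71 and 10.58 to 11.54, 11.59 and 11.07, by 0.69 ± 0.17 (adjusted p = 0.0045), with one BIO array closer to the DMSO arrays than the others. Ndufb8, of the membrane arm, rose by 0.45 ± 0.12, and Ndufs3 by 0.29 ± 0.08. In complex III, Uqcr11 rose by 0.80 ± 0.22, and Uqcrh, the acidic hinge protein that helps cytochrome c to dock, by 0.42 ± 0.14. In complex V, Atp5g2, 1 of 3 genes for the same mature subunit of the membrane ring, rose from 11.37, 11.20 and 11.28 to 11.88, 11.90 and 11.82, by 0.59 ± 0.11 (adjusted p = 0.000638), with no overlap. Atp5o, the stalk subunit that confers oligomycin sensitivity, rose by 0.26 ± 0.09 (adjusted p = 0.0441). Calls were lost in 10 of 15 settings for Atp5o, 8 for Uqcrh, 5 for Ndufb8 and 2 for Uqcr11, and each of the 4 was lost without DMSO aggregate replicate 2. Atp5o was also lost without DMSO aggregate replicate 3 or any BIO aggregate replicate, and Uqcrh without DMSO aggregate replicate 3 or BIO aggregate replicate 2 or 3. With the beta-actin covariate Ndufa6, Cox6b2 and Atp5g2 lost theirs too.

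The count in aggregates was 8 (6 higher, 2 lower) on the deposited scaling and 6 higher with arrays centred. It was 4 with the 3′ beta-actin signal as a covariate, which was 2669 to 5409.7 in BIO aggregates and 7700.5 to 12586 in DMSO aggregates, and 20 without DMSO aggregate replicate 1 or 6 without replicate 2. Beside this, the summed signal of 8 interstitial stroma markers, all above background in both groups, was 14220 to 15100 in DMSO aggregates. In BIO aggregates it was 4338 to 4585. Tcf21 went the other way (mean log2 8.664 to 9.112) and Meis1 stayed level (9.498 and 9.484), while the other stroma markers were lower. Progenitor markers summed to 12000 to 12570 in DMSO aggregates and 17550 to 17950 in BIO aggregates. Eya1, Sall1, Gdnf and Itga8 were higher, and Six2, Osr1, Meox1 and Crym lower. With BIO, Osr1 and Meox1 had means of 4.722 and 5.389, under the background of 5.421. Cited1 was under background in both groups (means 4.147 and 2.632). The part of either set of markers in the rises was not tested.

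**Figure D3:**
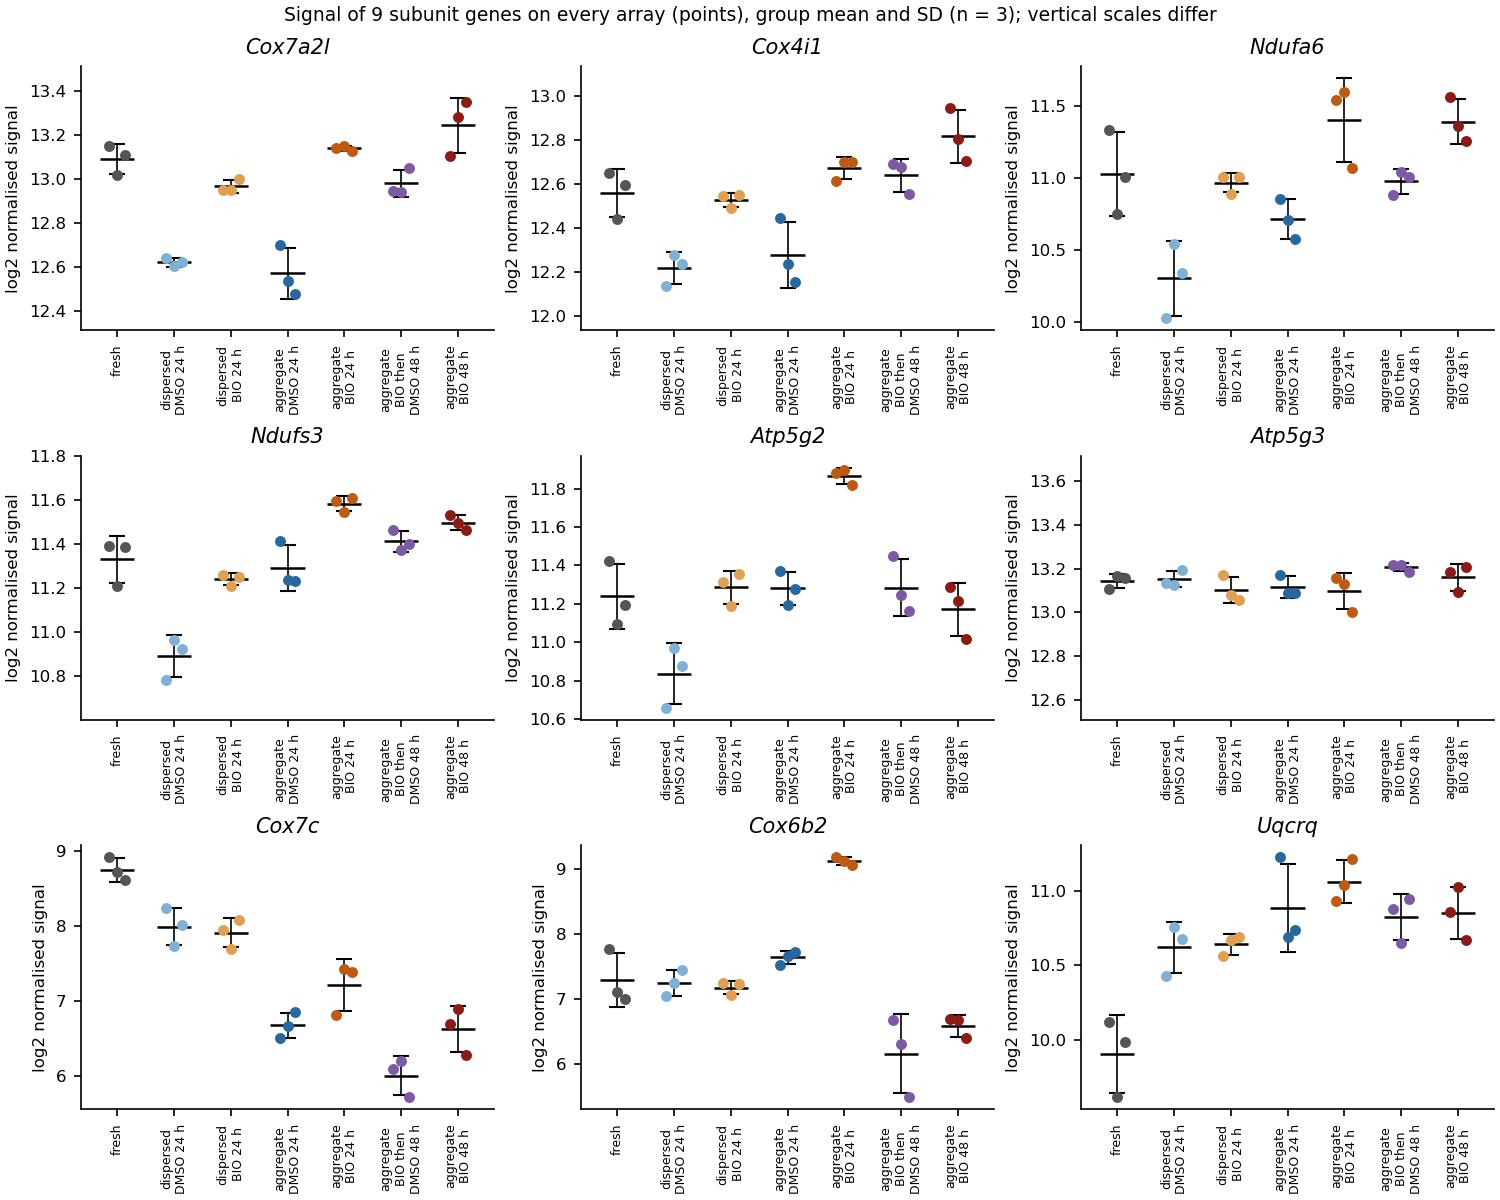
Log2 normalised signal (vertical axis, scales differ) of 9 subunit genes on each of the 21 arrays, by group (horizontal axis), with group means and SD bars (n = 3). Cox7a2l, Cox4i1, Ndufa6 and Ndufs3 are higher with BIO than with DMSO in both formats, Atp5g3 has group means of 13.10 to 13.21, Cox7c is lower in every cultured group than in fresh cells, and Cox6b2 is high in aggregates after 24 h of BIO, at 9.06 to 9.18.

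In dispersed cells BIO raised 8 of 80 subunit genes and lowered 3, where 15.3% of all genes rose and 13.4% fell (28.8% in all). Cox7a2l had signals of 12.64, 12.60 and 12.62 in DMSO and 12.95, 12.95 and 13.004 in BIO, and rose by 0.35 ± 0.08 (adjusted p = 0.00258). Cox4i1 rose by 0.31 ± 0.09, a call lost in 3 of 15 settings, among them that without dispersed DMSO replicate 1. Ndufa6 went from 10.03, 10.54 and 10.34 to 11.01, 10.89 and 11.004, a rise of 0.67 ± 0.17 (adjusted p = 0.00605), and Ndufs3 from 10.78, 10.97 and 10.93 to 11.26, 11.21 and 11.25, a rise of 0.35 ± 0.08 (adjusted p = 0.00218). The groups of both genes were apart, and both rises held in every alternative. Of the ring genes, Atp5g1 rose by 0.68 ± 0.21 and Atp5g2 by 0.45 ± 0.11. With the mean of its probe sets the change of Atp5g2 was 0.046 (limma adjusted p = 0.934), and Atp5g1 lost its call in 4 of 15 settings, among them those without dispersed DMSO replicate 1 or dispersed BIO replicate 1 or 3. Genes that fell were Ndufb2 by 0.60 ± 0.21, Ndufa1 by 0.30 ± 0.09 and Ndufa9, all of complex I. For Ndufb2 the mean of its 3 probe sets changed by -0.01, and the other probe sets did not pass, and its call was lost without any one of the 6 arrays. Ndufa1 lost its call without dispersed DMSO replicate 2 or dispersed BIO replicate 3. The count of 11 became 7 (4 higher, 3 lower) with arrays centred, 7 with the Gapdh ratio as a covariate, 7 without dispersed DMSO replicate 1 and 6 without dispersed BIO replicate 3. Stroma markers summed to 13180 to 14070 in dispersed DMSO cells and 3565 to 3874 in dispersed BIO cells. Of these Meis1 was higher with BIO (mean log2 9.047 to 9.467) and the others lower. Progenitor markers summed to 10860 to 11800 and 11870 to 12540 in the same order, with Eya1, Sall1 and Gdnf higher. Itga8 stayed level (10.33 and 10.29), and Cited1 was under the background of 5.421 in both groups (4.225 and 2.663). The other progenitor markers were lower. The part of either set of markers was not tested here either.

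The 7 genes that rose with BIO in both formats were Ndufa6, Ndufs3, Ndufv2, Cox4i1, Cox7a2l, Atp5g2 and Atp5o. With the mean of its probe sets Atp5g2 passed in aggregates alone, and the rise of Atp5o in aggregates was lost in 10 of 15 settings. The 7 were 53.8% of the 13 risers in aggregates and 87.5% of the 8 in dispersed cells, where the shared risers of all genes were 63.3% and 72.2%. The 2 comparisons use different arrays. Over the 74 genes above background on all arrays, 51 had the same direction of change in both formats (68.9%), with Pearson's r = 0.376 and Spearman's rho = 0.491 across genes, which are not independent replicates. Over 11502 genes above background on all arrays, r was 0.866 and rho 0.775, and 9107 (79.2%) had the same direction. The values of r are not directly comparable, since r depends on how widely changes are spread. With BIO in aggregates the lower and upper deciles of change were -0.08 and 0.42 for the 74 genes. For all 18193 genes they were -0.79 and 0.83.

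**Figure D4:**
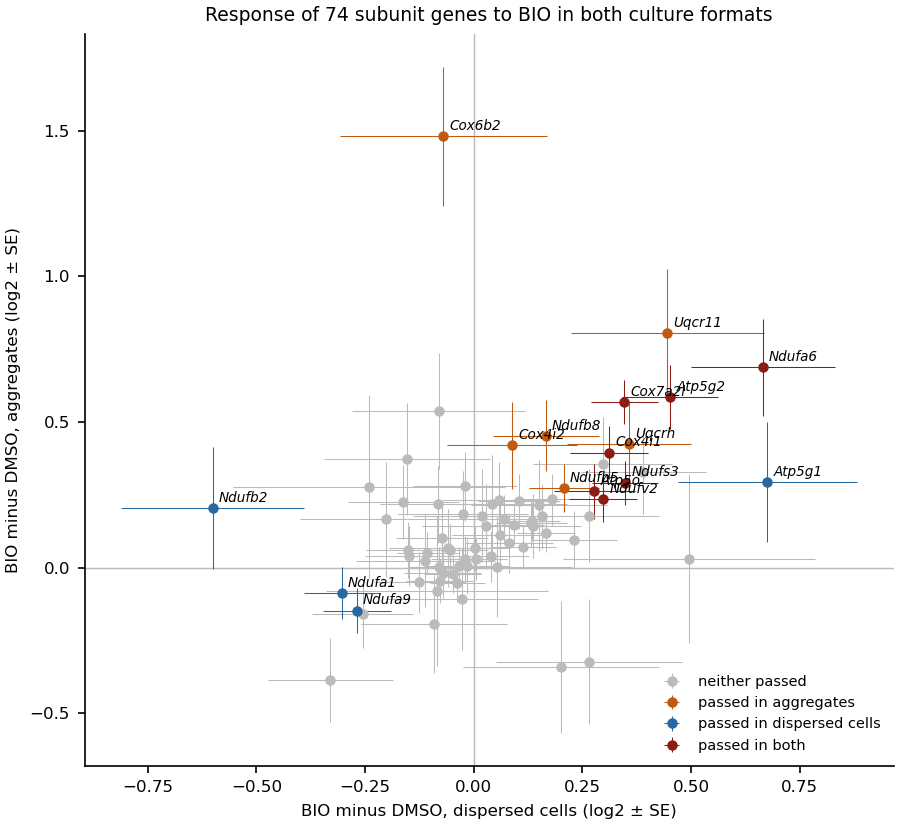
BIO minus DMSO in dispersed cells (horizontal axis, log2 ± SE) against the same difference in aggregates (vertical axis, log2 ± SE) for 74 subunit genes above background on all arrays, coloured by where they passed the threshold and named where they passed in either. The 7 genes that passed in both lie between 0.24 and 0.69 in aggregates, and Cox6b2 lies alone at 1.48 in aggregates and -0.07 in dispersed cells.

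Only Cox6b2, known as the testis form of a complex IV subunit, had a response to BIO that passed the test of the difference between formats, 1 of 80 genes (1.25%) where 1.57% of all genes passed. Its signals were 7.05, 7.24 and 7.45 in dispersed DMSO cells, 7.24, 7.06 and 7.22 in dispersed BIO cells, 7.53, 7.67 and 7.73 in DMSO aggregates and 9.18, 9.13 and 9.06 in BIO aggregates. The BIO aggregates stood above all other arrays of the series, including fresh cells at 7.77, 7.11 and 7.003. The rise in aggregates was 1.48 ± 0.24 (2.79-fold, adjusted p = 0.000157), and the change in dispersed cells was -0.07 ± 0.24. The difference between them was 1.55 ± 0.34 (limma adjusted p = 0.0281). It ranged from 1.35 to 1.65 over 21 alternatives and missed the threshold in 11 of them, with adjusted p up to 0.25, including 9 of the 12 in which 1 array was left out. The count of called subunit genes was 0 without dispersed DMSO replicate 2 or 3, any dispersed BIO replicate, DMSO aggregate replicate 2, or BIO aggregate replicate 1 or 2.

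Forms of these subunits known from particular tissues were set beside their widespread partners. Cox6b1, the widespread form of the same subunit, had group means between 12.93 and 13.10. Cox4i2, the form known from lung and from low oxygen, was 7.08 ± 0.30 (SD, n = 3) in DMSO aggregates and 7.50 ± 0.16 in BIO aggregates, a rise of 0.42 ± 0.15 (adjusted p = 0.0441), while in dispersed cells its change was 0.09 ± 0.15. The test of that difference gave 0.33 ± 0.21 (adjusted p = 0.585). Cox6a1 had means of 12.97 to 13.23 and its muscle partner Cox6a2 of 5.65 to 7.16, and Cox8a had means of 9.27 to 9.73. Cox7a1 and Cox8b, muscle forms, had no group mean above the background of 5.421. Among the 3 ring genes Atp5g3 passed in none of the 9 comparisons, with changes from -0.05 to 0.11.

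Aggregation itself, compared in DMSO, gave 4 higher subunit genes and 1 lower, where 1.84% of all genes were higher and 0.792% lower (2.63% in all). Beside Cox7c, these were Cox8c at 0.84 ± 0.21, Atp5g2 at 0.45 ± 0.11, Ndufs4 at 0.43 ± 0.11 and Ndufs3 at 0.40 ± 0.08. The median was 0.15 against 0.11 over all genes, and 66 of 80 changes were positive (82.5%, against 64.8% of all genes). On the deposited scaling 60 were positive, and with arrays centred 74. The calls were fragile. The count was 3 (1 higher, 2 lower) on the deposited scaling, 15 (13 and 2) with arrays centred, and 1 or 2 without any one of the 6 arrays. With the mean of all probe sets Atp5g2 turned to -0.37.

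The second day was read in 3 ways. Aggregates after 48 h of BIO had 1 subunit gene higher and 9 lower than after 24 h of BIO, where 8.05% of all genes were higher and 12.8% lower (20.8% in all). Aggregates moved from BIO to DMSO had 1 higher and 5 lower than after 24 h of BIO, where 8.66% were higher and 16.2% lower (24.9% in all). These comparisons share the arrays at 24 h. Between the groups at 48 h, those moved to DMSO had 2 higher and 3 lower than those kept in BIO, where 9.29% were higher and 11.1% lower (20.4% in all). The Gapdh 3′ over 5′ ratio was 13.4 ± 1.93 (SD, n = 3) after 24 h of BIO, 8.14 ± 1.74 after 48 h of BIO and 10.8 ± 1.38 after the move to DMSO, and with it as a covariate 1 gene passed in place of 10 for continued BIO. Summed stroma markers were 4338 to 4585 after 24 h of BIO, 2322 to 2839 after 48 h and 11120 to 12370 after the move to DMSO. Progenitor markers summed to 17550 to 17950, 7923 to 9650 and 6754 to 6991 in the same order. The part of these markers was not tested.

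Cox6b2 fell most. From 9.18, 9.13 and 9.06 after 24 h it stood at 6.70, 6.68 and 6.39 after 48 h of BIO and at 6.68, 6.31 and 5.49 after BIO and then DMSO. The changes were -2.53 ± 0.24 with continued BIO (5.79-fold, adjusted p = 1.51e-06) and -2.96 ± 0.24 with DMSO (7.80-fold, adjusted p = 1.97e-07). Both held in every alternative, and the groups at 48 h did not pass against each other (-0.43 ± 0.24). Its signals at 48 h were also below those of fresh cells in all 6 arrays. Atp5g2 fell by 0.69 ± 0.11 with continued BIO, to 11.29, 11.21 and 11.02. Cox7c fell by 1.21 ± 0.20 after the move to DMSO, to 6.10, 6.21 and 5.72, and was 0.62 ± 0.20 lower than with continued BIO. That difference lost its call in 10 of 15 settings, among them those without BIO then DMSO replicate 1 or 3 or BIO 48 h replicate 1 or 2 (limma adjusted p up to 0.612). Cox4i2 fell by 0.65 ± 0.15 after the move and was 0.62 ± 0.15 lower than with continued BIO (adjusted p = 0.00706). The fall lost its call in 3 of 15 settings (limma adjusted p up to 0.49). These were the deposited scaling, the beta-actin covariate and only the arrays compared, the last of which also lost the difference.

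Genes that kept the level of 24 h of BIO through 48 h of BIO included Cox7a2l at 13.11, 13.28 and 13.35, with a change of 0.11 ± 0.08 that did not pass. After the move to DMSO it stood at 12.95, 12.94 and 13.05, 0.26 ± 0.08 below continued BIO (adjusted p = 0.0223). In complex I, Ndufa9 and Ndufa5 were each 0.39 higher after the move to DMSO than with continued BIO (SE 0.08 and 0.10), and Ndufa5 lost its call in 4 of 15 settings, among them that without BIO then DMSO replicate 3. Ndufb2 fell by 0.78 ± 0.21 with continued BIO, but the mean of its probe sets gave 0.29. Ndufa10 rose by 0.73 ± 0.23 with continued BIO and by 0.69 ± 0.23 after the move, and these turned to -0.15 and -0.66 with the beta-actin covariate, and the second to -0.11 with the mean of its probe sets. The counts of 10 and 6 became 0 higher and 16 lower and 0 higher and 22 lower with arrays centred, and the count of 10 became 5 without BIO 24 h aggregate replicate 2 or 3 or without BIO 48 h replicate 1. Between the groups at 48 h the count of 5 became 3 without BIO then DMSO replicate 3 or without BIO 48 h replicate 2. On the deposited scaling the median of all genes for the move to DMSO was -0.04 instead of -0.16, and that of the subunit genes -0.07 instead of -0.08.

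Lists of other mitochondrial genes from textbook knowledge were read against the same shares of all genes. With BIO, 17.5% of all genes rose and 12.5% fell in aggregates, and 15.3% rose and 13.4% fell in dispersed cells. For the move to DMSO 8.66% rose and 16.2% fell. The alternatives were run for the subunit genes only and not for these lists. Shares from lists of a few genes are coarse. Of 76 mitochondrial ribosome proteins, which translate the subunits encoded in mitochondrial DNA, 35 rose and 2 fell with BIO in aggregates, with a median of 0.33, and 20 rose and 2 fell in dispersed cells, with a median of 0.12. Mrps35 rose by 0.98 ± 0.14 and 0.82 ± 0.14, and Mrps9 by 0.84 ± 0.10 and 0.59 ± 0.10. After the move to DMSO 0 of the 76 rose and 21 fell. With continued BIO 0 rose and 16 fell, where 8.05% of all genes rose and 12.8% fell. At 48 h, 1 was higher and 5 lower after the move than with continued BIO. Of all genes 9.29% were higher and 11.1% lower there. Of 46 cytosolic ribosome proteins 24 rose with BIO in aggregates and 22 in dispersed cells, and 0 fell in either, Rps15 among them at 0.99 ± 0.19 and 0.92 ± 0.19.

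Median changes of the other lists with more than 1 measured gene ran from -0.10 to 0.42 in aggregates and from -0.15 to 0.33 in dispersed cells. Of 15 complex I assembly factors 5 rose in aggregates and 4 in dispersed cells with BIO, and 0 fell. Nubpl, which delivers iron-sulphur clusters to complex I, rose by 0.75 ± 0.14 and 0.64 ± 0.14 and had fallen, with changes of -0.74 ± 0.14 and -0.80 ± 0.14 in culture, against the same DMSO arrays. Of 4 complex II assembly factors 1 rose in each format, Sdhaf3 by 0.82 ± 0.20 and 0.64 ± 0.20. Of 6 for complex III, 1 fell in each, Uqcc2, with changes of -1.02 ± 0.18 and -1.27 ± 0.18. Of 17 measured for complex IV, 1 rose in aggregates and 2 rose and 2 fell in dispersed cells. Sco2, a copper chaperone of that complex, passed as a fall in dispersed cells, where its mean with BIO was below background, so no fold is given. Coa7 rose by 0.90 ± 0.18 and 1.01 ± 0.18. Of 4 for complex V, 3 rose in aggregates and 1 in dispersed cells.

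Of 15 regulators of mitochondrial biogenesis, 6 rose and 2 fell with BIO in aggregates and 6 rose and 1 fell in dispersed cells. Tfam, which packages and transcribes mitochondrial DNA, rose by 0.49 ± 0.13 and 0.61 ± 0.13, and Gabpb1, the partner of GABPA, by 0.74 ± 0.14 and 0.48 ± 0.14, while Gabpa fell, with changes of -0.39 ± 0.09 and -0.38 ± 0.09. Of 11 electron and nucleotide carriers 1 rose and 4 fell in aggregates and 0 rose and 3 fell in dispersed cells. Cycs, cytochrome c, fell, with changes of -0.23 ± 0.07 and -0.24 ± 0.07, and Slc25a5, an ADP/ATP carrier, likewise with -0.46 ± 0.08 and -0.50 ± 0.08. Of 12 measured citric acid cycle genes 3 rose and 1 fell in aggregates and 2 rose and 2 fell in dispersed cells, Idh3b rising by 0.31 ± 0.08 and 0.30 ± 0.08.

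Among 10 measured genes that steer pyruvate, 2 rose and 2 fell in aggregates and 1 rose and 2 fell in dispersed cells. Pdk4, which shuts pyruvate dehydrogenase, fell, with changes of -2.34 ± 0.25 and -2.78 ± 0.25, and Ldhb, a lactate dehydrogenase subunit, rose by 1.05 ± 0.09 and 0.90 ± 0.09. Of 6 respiratory genes linked to low oxygen 2 rose and 2 fell in aggregates and 1 rose and 1 fell in dispersed cells, and Higd1a fell, with changes of -0.39 ± 0.10 and -0.55 ± 0.10. Of 8 measured genes of defence against reactive oxygen 1 rose and 1 fell in aggregates and 0 rose and 2 fell in dispersed cells, with Gpx1 falling, with changes of -0.59 ± 0.14 and -0.70 ± 0.14. Outside the symbol pattern were 3 genes, the subunits Cyc1 and Ndufab1 and the complex V factor Dmac2l. Of these, 2 rose in aggregates, Ndufab1 by 0.42 ± 0.14 and Dmac2l by 0.46 ± 0.15, and Dmac2l rose by 0.52 ± 0.15 in dispersed cells. Of 13 mitochondrially encoded subunits 1 was measured, ND5, which did not pass with BIO at 24 h (-0.15 in aggregates and 0.11 in dispersed cells). ND5 did pass as lower for culture as aggregates (-0.49), and as higher on the second day of BIO (0.62) and after the move to DMSO (0.64).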

How the data were processed

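Per the labels' protocols, RNA from sorted cells went through 2 rounds of amplification and biotin labelling. The authors deposited linear signal intensities for 45101 probe sets; the software and scaling behind them: not given in the sources used here. Probe sets with 1 gene symbol (34945) were kept, 34741 of them named through RefSeq, while 932 with several symbols, 9160 with none and 64 controls were left out. Quantile normalisation, log2(value + 1) and the brightest probe set per gene gave 18193 genes. limma 3.58.1 in R 4.3.3 fitted 1 mean per group (14 residual degrees of freedom) with Benjamini-Hochberg adjustment and a threshold of 0.05, tested on simulated data first. Figures used matplotlib 3.10.9 in Python 3.11.15. The number of arrays, 3 a group, limits the precision.

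The subunit genes and lists were chosen with earlier results of these data known. Named genes are those past the threshold without overlap between groups: the 2 largest rises and falls per complex for culture as aggregates, both BIO comparisons and BIO removal, the 3 largest rises and falls over all complexes elsewhere (with no condition on overlap for the interaction), the brightest gene of each complex, tissue isoforms, and up to 2 genes per companion list. Genes named beyond these were chosen after their values were seen.

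Alternatives were a filter on dim genes, arrays centred on their medians, the scaling as deposited, the mean of all probe sets, log2(value + 16), the replicate number as a block, the Gapdh ratio or beta-actin signal as covariate, only the arrays compared, and leaving out each array. Protein sequences were not used here.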

Additional observations from a re-analysis of the deposited data

Results flagged for a closer look

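The response of Cox6b2 to BIO differed between culture formats by a test of the difference itself. BIO in aggregates minus BIO in dispersed cells was 1.55 on the log2 scale (limma adjusted p = 0.0281), with 3 of 3 BIO aggregates above all DMSO aggregates. It missed the threshold in 11 of 21 alternatives. Among these were the Gapdh ratio or the beta-actin signal (limma adjusted p = 0.25) as a covariate, and most settings in which 1 array was left out. No cause was tested.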

How the results depend on the processing

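Of 53 results for named subunit genes, over 33 genes, 12 kept their call in every setting run. These were Uqcrq, Cox7c, Cox7a2l and Atp5md for culture as aggregates, Ndufb4, Ndufa6 and Ndufv1 for culture as dispersed cells, Cox7a2l for BIO in aggregates, Ndufa6 and Ndufs3 for BIO in dispersed cells, and Cox6b2 for the second day of BIO and for the move to DMSO. The direction reversed for Atp5g2 (aggregation in DMSO, -0.37), Ndufb2 (second day of BIO, 0.29) and Ndufa10 (move to DMSO, -0.11) with the mean of all probe sets, and for Ndufa10 with the beta-actin covariate (-0.15 and -0.66), and the cause was not tested.

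Counts of called subunit genes moved as follows. For culture as aggregates, 19 became 32 with centring, 8 with the Gapdh ratio and 6 with only the arrays compared. For BIO in aggregates, 13 became 8 on the deposited scaling, 6 with centring, 4 with beta-actin and 5 with only the arrays compared. For BIO in dispersed cells, 11 became 7 with centring and 7 with the Gapdh ratio. For the interaction, 1 became 0 with either covariate (limma, where 4 had an unadjusted p under 0.05 in the reported fit). For aggregation in DMSO, 5 became 3 on the deposited scaling, 15 with centring, 0 with only the arrays compared, and 2 each with the mean of probe sets, the Gapdh ratio and beta-actin. For BIO removal, 5 became 3 with the Gapdh ratio and 0 with only the arrays compared. For the second day of BIO, 10 became 16 with centring, 5 with the mean of probe sets, 1 with the Gapdh ratio, and 3 each with beta-actin and only the arrays compared. For the move to DMSO, 6 became 22 with centring, 1 with beta-actin and 3 with only the arrays compared. Fewer arrays in the fit leave fewer degrees of freedom. Other causes were not tested.

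Leaving out 1 array at a time gave 13 to 20 (culture as aggregates), 14 to 24 (culture as dispersed cells), 6 to 20 (BIO in aggregates), 6 to 11 (BIO in dispersed cells), 0 to 1 (interaction), 1 to 2 (aggregation in DMSO), 3 to 6 (BIO removal), 5 to 11 (second day of BIO) and 4 to 6 (move to DMSO).

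With the replicate number as a block, aggregation in DMSO gave 2 calls, and the other counts stayed within 1.5 times. Replicate numbers did not pair the arrays: same-numbered arrays correlated in their deviations at a median of -0.0241 (63 pairs, -0.388 to 0.264), and 2 of 21 arrays were closest to their own number.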
